A study of Mus musculus with 8 samples.

Results

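Stretches of mouse chromosome 5 that held few peaks of methylated DNA at embryonic stage E12.5 were examined. The first runs from 39500000 to 42500000 (3.0 Mb) and the second from 54500000 to 58000000 (3.5 Mb), in coordinates of the mm9 build. Peaks of the 8 libraries that overlapped by 1 bp or more were joined, which gave 475861 merged regions. The members are the 467 merged regions that overlap the stretches, 236 in the first and 231 in the second. The stretches make up 4.35% of the span of chromosome 5 between its first and last peak and hold 1.52% of its 30772 merged regions. They were chosen for their low number of E12.5 peaks in these same libraries, and whether values of the other groups entered that choice is not stated in the sources used here. E12.5 values inside them are therefore given as a description, with no test. The stretches were not free of E12.5 peaks. The E12.5 libraries together had 28 peaks in the first stretch and 28 in the second, and 46 of the 467 members (9.85%) held at least 1 of them, beside 30.1% of all merged regions.

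Methylation of cytosine at CpG dinucleotides is the main DNA modification of vertebrate genomes. It is copied to daughter strands at replication by the maintenance methyltransferase and set at new sites by the de novo methyltransferases. The methyl-CpG binding domain (MBD) of MBD proteins holds fragments that carry several methylated CpGs, and a pull-down with it enriches such fragments. DNA poor in CpGs gives few captured fragments at any level of methylation, and the CpG content of the stretches was not analysed here. In the intestine the early epithelium grows as a tube of dividing progenitors, which later forms villi. In the adult, Lgr5+ stem cells at the crypt base renew absorptive enterocytes.

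MBD pull-downs of sorted small intestinal epithelium were compared in 4 groups with 2 biological replicates each, all from mice of a mixed C57BL/6 and CD1 strain. The embryonic groups were EpCAM+ cells of E12.5 and E14.5 embryos, sorted free of CD31, CD45 and the dead-cell dye DAPI. The adult groups came from Lgr5EGFP-Cre-ERT males at postnatal day 60. Intestinal stem cells (ISC) were the cells with high EGFP driven from Lgr5. Enterocytes were live EpCAM+ cells without CD31 and CD45, a gate that carries no marker particular to enterocytes. The protocol gives this gate after a crypt preparation and does not state whether villus material was used. The labels name no treatment, and no transgene in the embryos. The peak lists hold no expression values against which the cell types could be checked. The design text calls the replicates biological duplicates. The embryos were not sexed in the labels and the adults were male, so age and sex cannot be told apart.

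Each library's list of peaks was called by the authors on its own, with no control library. Total tags (mapped reads as used by the caller) ran from 31438314 to 55442400 and the lists from 84990 to 338262 peaks. The E12.5 libraries had the most tags, 55237390 and 55442400, and the shortest lists, with 100314 and 84990 peaks. Their part in the E12.5 values below was not tested. For this reason each density was computed on the full lists and again on lists of equal length, each list being reduced to its 84990 peaks of highest score. The score is the authors' value, the caller's p-value on a negative log10 scale times 10. Intervals for shares are 95% Wilson intervals and cover counting error only.

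Both stretches were thin in peaks in every group, and most so at E12.5. In the first stretch the E12.5 libraries had 17 and 11 peaks, E14.5 had 139 and 136, ISC had 81 and 113, and enterocytes had 63 and 101. In the second stretch the numbers were 17 and 11 at E12.5, 147 and 124 at E14.5, 59 and 115 in ISC, and 73 and 77 in enterocytes. Every E12.5 library lay below every other library in both stretches, both E14.5 libraries lay above every adult library, and ISC and enterocytes overlapped. The rest of chromosome 5 held 6719 and 5855 peaks at E12.5, 20418 and 22562 at E14.5, 13538 and 18703 in ISC, and 10778 and 15245 in enterocytes over 143 Mb, where E12.5 was likewise lowest and E14.5 highest.

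Peak density was next taken relative to the rest of the same chromosome, a ratio that still moved with the length of the list, as the reduced lists below show. At E12.5 the first stretch was 8.29 and 11.2 times less dense than the rest of chromosome 5, and the second 9.67 and 13.0 times. The other libraries were 3.08 to 3.59 times less dense in the first stretch and 3.40 to 5.62 times in the second. Thus E12.5 did not overlap the other groups in either stretch, and those groups shared a low density of their own. On the log2 scale the relative density in the first stretch was -3.27 ± 0.30 (SD, n = 2) for E12.5, -1.71 ± 0.12 for E14.5, -1.80 ± 0.01 for ISC and -1.75 ± 0.13 for enterocytes. In the second stretch it was -3.49 ± 0.30 for E12.5, -1.96 ± 0.28 for E14.5, -2.24 ± 0.35 for ISC and -2.06 ± 0.30 for enterocytes. The E14.5 mean thus lay above the E12.5 mean by 1.55 (2.94-fold) in the first stretch and by 1.53 (2.89-fold) in the second.

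As a share of all its peaks on chromosome 5, E12.5 replicate 1 had 0.252% (interval 0.157 to 0.403%) in each stretch, and replicate 2 had 0.187% (0.105 to 0.335%) in each. These shares rest on 17 and 11 peaks and have wide intervals. In the first stretch the other 6 libraries had 0.577 to 0.671%. In the second they had 0.431 to 0.710%, lowest in ISC replicate 1 (interval 0.335 to 0.556%) and enterocyte replicate 2 (0.499%, interval 0.400 to 0.623%). The share of bases under peaks was lowest at E12.5 as well. In the first stretch peaks covered 0.296% and 0.164% of bases at E12.5, 1.83% and 1.1% at E14.5, 1.18% and 1.73% in ISC, and 1.58% and 1.88% in enterocytes. In the second stretch the cover was 0.276% and 0.157% at E12.5, 1.71% and 0.843% at E14.5, 0.753% and 1.59% in ISC, and 1.74% and 1.37% in enterocytes. The E12.5 values were the lowest in both, and the other groups overlapped.

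The gap between E12.5 and the other groups was smaller with lists of equal length. In the first stretch the reduced lists held 14 and 11 peaks at E12.5, 18 and 31 at E14.5, 34 and 32 in ISC, and 28 and 25 in enterocytes. In the second stretch they held 13 and 11 at E12.5, 16 and 24 at E14.5, 22 and 28 in ISC, and 35 and 25 in enterocytes. E12.5 was again the lowest group in both stretches, but in each stretch E12.5 replicate 1 and E14.5 replicate 1 were close. The fold by which the first stretch was less dense than the rest of the chromosome was 8.52 and 11.2 at E12.5, 6.54 and 3.88 at E14.5, 3.64 and 3.82 in ISC, and 4.26 and 4.84 in enterocytes. In the second stretch it was 10.7 and 13.0 at E12.5, 8.58 and 5.85 at E14.5, 6.56 and 5.09 in ISC, and 3.97 and 5.64 in enterocytes. The E14.5 mean lay above the E12.5 mean by 0.95 on the log2 scale (1.93-fold) in the first stretch and by 0.74 (1.67-fold) in the second, so the reduced lists gave a smaller ratio than the full lists in both.

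**Figure D1:**
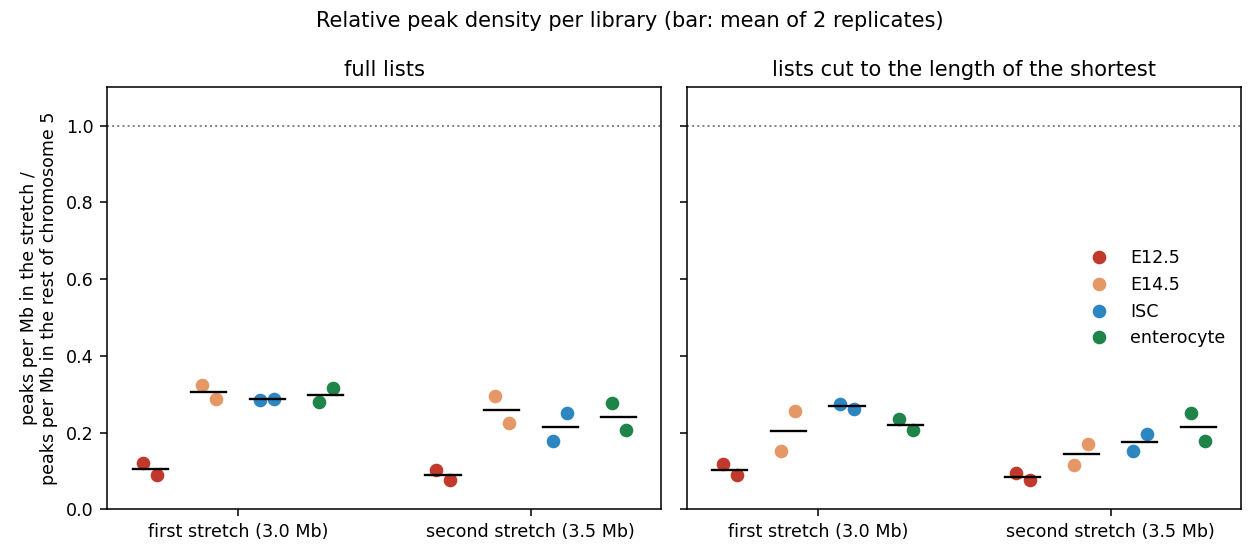
Peaks per Mb in each stretch divided by peaks per Mb in the rest of chromosome 5 (vertical axis; dotted line at 1), 1 point per library, with the mean of 2 replicates as a bar, for full lists (left) and lists of equal length (right). E12.5 lies lowest in each stretch, and every library lies far below 1.

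The later groups were compared with each other, without E12.5, by an exact two-sided permutation test over libraries, 6 tests in all. These comparisons ask whether the low density seen at E14.5 differs in adult stem cells and enterocytes. With 2 libraries against 2 the p-value cannot fall below 0.333, and with 4 against 2 not below 0.133, so no difference could pass 0.05. ISC minus E14.5 was -0.09 on the log2 scale in the first stretch and -0.28 in the second (exact permutation p = 0.667 in each). Enterocyte minus ISC was 0.05 (exact permutation p = 1) and 0.18 (exact permutation p = 0.667). Adult minus E14.5 was -0.07 (exact permutation p = 0.4) and -0.19 (exact permutation p = 0.533). After Benjamini-Hochberg adjustment all 6 lay between 0.8 and 1. The groups overlapped in all 6 of these comparisons, and the pooled SD between replicates was 0.09 to 0.33. With lists of equal length both differences from E14.5 turned positive. ISC minus E14.5 was then 0.44 in the first stretch (exact permutation p = 0.333, the smallest possible, with no overlap) and 0.29 in the second (exact permutation p = 0.667). Adult minus E14.5 was 0.29 (exact permutation p = 0.4) and 0.44 (exact permutation p = 0.267). Enterocyte minus ISC was -0.28 in the first stretch (exact permutation p = 0.333, with no overlap) and 0.29 in the second (exact permutation p = 0.667). The sign with full lists also turned on single libraries. Enterocyte minus ISC in the first stretch was -0.04 without enterocyte replicate 2, and in the second -0.07 without ISC replicate 1 and -0.035 without enterocyte replicate 1. Adult minus E14.5 was 0.021 and 0.0017 without E14.5 replicate 1. No direction among the later groups was therefore stable across the settings run.

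The profile along the chromosome was read in windows of 500 kb, 13 of which tile the stretches. The median stretch window had 1 peak at E12.5 (mean of 2 replicates), 20 at E14.5, 10.5 in ISC, and 9 in the enterocyte lists. The other 285 windows of chromosome 5 had medians of 24.5, 86, 64 and 50.5 peaks. In 4 of the 13 stretch windows neither E12.5 library had a peak, against 4 of the other 285 (1.4%). These were 41-41.5, 55.5-56.0, 56.0-56.5 and 57.0-57.5 Mb. In them E14.5 had 14 and 17, 11 and 7, 19 and 21, and 16 and 15 peaks. In the same windows ISC had 8 and 13, 2 and 9, 8 and 13, and 9 and 12 peaks, and enterocytes 4 and 9, 3 and 6, 10 and 8, and 10 and 6. Each of the 6 other libraries thus had peaks in all 4 windows that were empty at E12.5. With 0 peaks in a window, up to 3 remain possible for each library by counting error.

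The first stretch was thinnest near its middle in the later groups. The window at 40.5-41 Mb had 1 and 0 peaks at E12.5, 3 and 10 at E14.5, 4 and 6 in ISC, and 0 and 4 in enterocytes. The second stretch fell away from its left edge. At 54.5-55.0 Mb it had 12 and 9 peaks at E12.5, 47 and 43 at E14.5, 22 and 41 in ISC, and 22 and 31 in enterocytes. Of the 22 members of the second stretch with an E12.5 peak, 15 lay in this window, so the rest of that stretch was poorer in E12.5 peaks than its mean density shows. After trimming 250 kb from each end, the E14.5 minus E12.5 difference in the second stretch was 2.80 on the log2 scale in place of 1.53. That value rests on very few E12.5 peaks. In the trimmed stretch E12.5 replicate 2 had peaks only at chr5:54795958-54796333 and chr5:56537084-56537453, with 28 and 29 tags.

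The bounds differ in how sharply they cut the E12.5 signal. The last window before the first stretch had 17 and 21 E12.5 peaks, and the first window inside had 3 and 1. The last window inside it had 6 and 2, and the first after it 3 and 2, so the right bound of the first stretch marks no rise. The last window before the second stretch had 39 and 24 E12.5 peaks against 12 and 9 just inside. Its last window had 1 and 1, and the next one 6 and 4. E14.5 fell at the same left bounds, from 66 and 74 to 24 and 21 peaks at the first stretch and from 89 and 90 to 47 and 43 at the second.

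**Figure D2:**
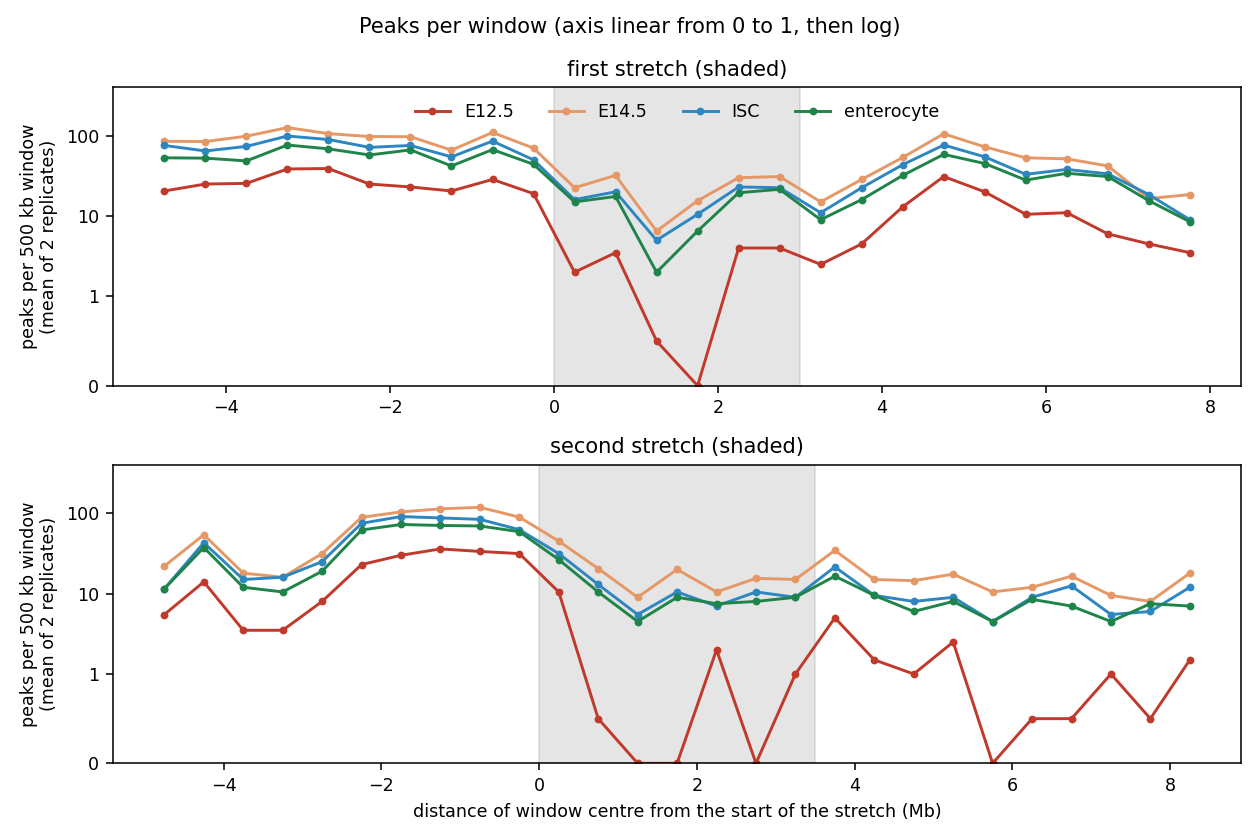
Mean peaks of 2 replicates per 500 kb window (vertical axis, linear from 0 to 1 and log above) against the distance of the window's centre from the start of the stretch in Mb, 1 line per group, with the stretch shaded. All groups fall inside the shading, and only the E12.5 line reaches 0 in the windows drawn.

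The longest run inside the first stretch without a peak of either E12.5 library was 875 kb, from 40666171 to 41541586. It held 39 members. E14.5 had 16 and 21 peaks there, ISC 9 and 16, and enterocytes 5 and 10. The longest such run in the second stretch was 1408 kb, from 55128850 to 56537083, with 83 members. There E14.5 had 47 and 40 peaks, ISC 14 and 35, and enterocytes 21 and 21. The same measure over both E14.5 libraries was 169 kb in the first stretch and 144.6 kb in the second. In ISC it was 163 and 149 kb, and in enterocytes 221 and 190 kb. The E12.5 runs without a peak were thus several times longer than those of any other group. Fewer peaks give longer gaps, and with all 8 libraries together the longest gap was 124.7 kb in the first stretch and 144 kb in the second.

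Windows that are equally thin at E14.5 offer a closer comparison than the whole chromosome. On the rest of chromosome 5, 84 windows had a mean E14.5 number of peaks within the range of the stretch windows, 6.5 to 45. Their median was 19 peaks at E14.5 and 3 at E12.5, beside 20 and 1 in the stretches. E12.5 peaks per E14.5 peak, summed over windows, were 0.103 in the stretches, 0.180 in those 84 windows and 0.293 over all 285 other windows. With lists of equal length and the E14.5 range taken again on those lists, the ratios were 0.551 in the stretches, 0.870 in 91 thin windows and 1.02 over all others. The stretches gave the lowest ratio in each case, as their choice on E12.5 peaks would make them, and no test was made. They do not stand alone on the chromosome. Of the other 285 windows, 22 (7.72%) had no more E12.5 peaks than the median stretch window, a sum of 2 over both libraries.

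**Figure D3:**
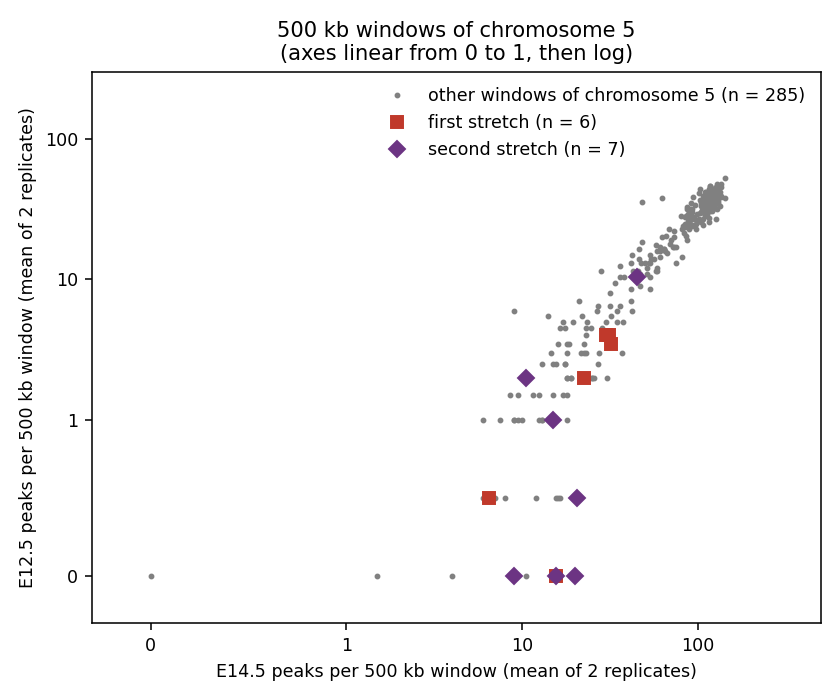
Each point is a 500 kb window of chromosome 5, with its mean E14.5 peaks on the horizontal axis and its mean E12.5 peaks on the vertical axis, both linear from 0 to 1 and log above. The 13 stretch windows lie in the lower left among the thin windows of the rest, and 4 of them lie at 0 E12.5 peaks.

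At the level of members, E12.5 replicates had a peak in 33 and 21 of the 467, which is 7.07% and 4.50%. Over all merged regions these shares were 20.6% and 17.4%. E14.5 had peaks in 278 and 241 members (59.5% and 51.6%, beside 63.1% and 63.2% of all regions). ISC had 139 and 221 (29.8% and 47.3%, beside 40.8% and 56.5%). Enterocytes had 136 and 175 (29.1% and 37.5%, beside 34.4% and 47.4%). Every library called a lower share of members than of all regions, and the shortfall was proportionally smallest at E14.5 replicate 1. With lists of equal length the numbers were 26 and 21 at E12.5 (5.57% and 4.50%, beside 17.5% and 17.4% of all regions) and 33 and 55 at E14.5 (7.07% and 11.8%, beside 17.6% and 17.3%). They were 56 and 59 in ISC (12% and 12.6%, beside 17.5% and 17.6%) and 63 and 50 in enterocytes (13.5% and 10.7%, beside 17.8% and 17.7%). E12.5 had the fewest in both settings.

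The share of regions called in both replicates was low in the stretches. Both replicates had a peak in 8 members at E12.5 (1.71%, beside 7.93% of all regions), 147 at E14.5 (31.5%, beside 43.7%), 90 in ISC (19.3%, beside 31.4%) and 92 in enterocytes (19.7%, beside 27.7%). Of the members called in at least 1 replicate, both replicates called 17.4% for E12.5, 39.5% for E14.5, 33.3% for ISC and 42.0% for enterocytes. On the rest of chromosome 5 the shares were 27.8%, 54.9%, 49.8% and 52.7%, higher in all 4 groups. A single library called 171 members (36.6%, beside 28.1% of all regions), and 98 of these were from E14.5 (21.0% of members, beside 16.4% of all regions). Over all regions a single library called 133930, and 78251 of these were from E14.5. All 8 libraries called 7 members (1.5%, beside 5.16%). The members were short, with a median length of 443 bp against 589 bp on the rest of the chromosome.

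Members with a peak in both replicates at E14.5 and in none at E12.5 numbered 126 (27%), beside a background of 23.9% of all regions. The reverse held for 1 member (0.214%), beside 0.276%. The stretches were chosen on the E12.5 side of this contrast, and nothing is read from these shares. With lists of equal length the counts were 15 (3.21%, beside 2.56%) and 1 (0.214%, beside 1.7%). Without E14.5 replicate 1 or 2, so that a peak in 1 library is enough, the first count was 218 and 248. The share of all regions is not given for that looser count. The 1 member seen in both E12.5 libraries and in no other lay at chr5:54629539-54630000 with 32 and 29 tags, and it was singled out after its values were seen.

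Among the later groups the members split in much the same proportions as all regions. Members with a peak in both ISC replicates and in none of E14.5 numbered 7 (1.5%, beside 1.91%), and those of the reverse kind 31 (6.64%, beside 6.69%). Both enterocyte and neither ISC library had a peak in 7 members (1.5%, beside 1.28%), and both ISC and neither enterocyte library in 14 (3.00%, beside 3.85%). All 4 adult and no embryonic library had a peak in 1 member (0.214%, beside 0.402%), and all 4 embryonic and no adult library in 0 (beside 0.139%). These shares lie near the background in each direction. With lists of equal length the counts were 11 (2.36%, beside 1.53%), 5 (1.07%, beside 1.42%), 3 (0.642%, beside 1.37%), 7 (1.5%, beside 1.1%), 3 (0.642%, beside 0.303%) and 0 (beside 0.107%), in the same order. Leaving out 1 library at a time gave 13 to 44 and 42 to 101 for ISC against E14.5, 12 to 37 and 17 to 87 for enterocytes against ISC, and 1 to 3 for the adult count. A count without 1 library asks for a peak in fewer libraries, so by construction it cannot fall, over all regions as well. The shares of all regions are not given for these counts, and nothing about the members is read from them.

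In 76 members (16.3%, beside 17.6% of all regions) the replicates of every group matched. Of these, 37 (48.7%) had peaks in the 3 later groups and none at E12.5, 20 (26.3%) at E14.5 alone and 7 (9.21%) in all 4 groups. On the rest of chromosome 5, 5590 regions matched in this way, with 29.9%, 19.7% and 32.1% in those patterns. Over all 83533 such regions of the genome the shares were 31.3%, 20.9% and 29.4%. Presence in all groups but E12.5 was the most common of these patterns in the stretches and over the genome. On the rest of chromosome 5 presence in all 4 was slightly more common. The choice of the stretches used the E12.5 side of these patterns, and nothing is read from their shares.

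E12.5 peaks were less frequent than on the rest of chromosome 5 also among members with a peak in all 6 other libraries. The stretches were chosen for few E12.5 peaks, so the E12.5 shares below are given as a description only. All 6 E14.5, ISC and enterocyte libraries had a peak in 52 of the 467 members, beside 81732 of all 475861 regions. At least 1 E12.5 library had a peak in 15 of the 52 members (28.8%) and neither did in 37. On the rest of the chromosome 5647 of the 30305 regions had a peak in all 6, and 70.4% of those 5647 had an E12.5 peak. The 147 members called in both E14.5 libraries were next divided by strength into the 10 classes that hold equal numbers of all such regions, by the lower of their 2 score percentiles. In classes 1 to 5, the weaker ones, 7 of 83 members (8.43%) had an E12.5 peak, beside 30.2% on the rest of chromosome 5 and 18.1% in its thin windows. In classes 6 to 8 it was 10 of 46 (21.7%), beside 51.9% and 30.0%. In classes 9 and 10 it was 4 of 18 (22.2%), beside 80.1% and 58.6%. The share with an E12.5 peak was lower in the stretches in every class, and the strongest classes hold only 18 members.

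Presence in adult cells was read in the same classes. In classes 1 to 5 both ISC libraries had a peak in 28.9% of the members, beside 37.3% on the rest of the chromosome and 27.8% in its thin windows, and both enterocyte libraries in 28.9%, beside 29.9% and 28.3%. In classes 6 to 8 the ISC share was 52.2%, beside 65.3% and 48.4%, and the enterocyte share 69.6%, beside 60.2% and 56.4%. These classes hold 46 members, 24 in the first stretch and 22 in the second. The ISC share in them was 66.7% in the first stretch and 36.4% in the second, and the enterocyte share 79.2% and 59.1%. In classes 9 and 10 both ISC libraries had a peak in 83.3% of the members, beside 89.4% on the rest of the chromosome and 82.2% in its thin windows. Both enterocyte libraries had one in 88.9%, beside 90.2% and 89.8%. Over all classes the ISC share was 42.9%, beside 56.6% and 41.3%, and the enterocyte share 49.0%, beside 51.6% and 44.7%. With both stretches pooled, the ISC share thus lay below that of the rest of the chromosome in every class. It was within 4 percentage points of that of the thin windows. The pooled enterocyte share lay above both in classes 6 to 8. In the second stretch alone it was below that of the rest, at 59.1% beside 60.2%.

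**Figure D4:**
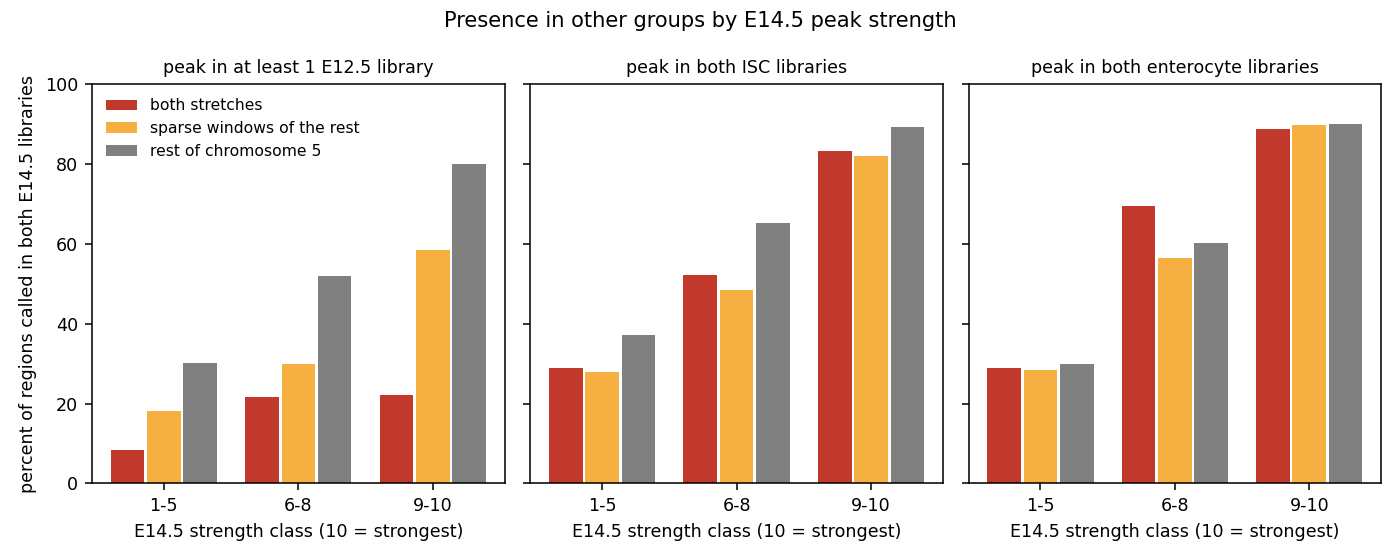
Percent of regions called in both E14.5 libraries that also held a peak of either E12.5 library (left), in both ISC libraries (middle) or in both enterocyte libraries (right), by E14.5 strength class, for the stretches, the thin windows of the rest and the whole rest of chromosome 5. In classes 9 and 10 the E12.5 share is 22.2% in the stretches (4 of 18 members), 58.6% in the thin windows and 80.1% on the rest. The stretches were chosen for few E12.5 peaks, so a low E12.5 share in them is built into that choice. The adult shares, which ask for a peak in both libraries, lie between 82.2% and 90.2%.

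With both stretches pooled, the median peak was weaker and shorter than on the rest of the chromosome in all 8 libraries. The median score percentile within a library's own list was 34.1 to 47.5 in the stretches and 50.6 to 51.8 on the rest. E12.5 replicate 2 was above the rest in the second stretch alone, at 59.1 against 51.3 over 11 peaks. Median tags per peak were 35 and 34.5 at E12.5, 25 and 18.5 at E14.5, 25 and 26 in ISC, and 43 and 34 in enterocytes. On the rest they were 49 and 44, 36 and 28, 34 and 37, and 59 and 48. The stretch median was 0.661 to 0.784 times that of the rest in tags and 0.754 to 0.832 times in length. The median fold over local background, a ratio given by the caller, went the other way. It was higher in the stretches in 7 of 8 libraries, by up to 1.13 times, and equal in E12.5 replicate 1. By the authors' score, and not by the fold, 11.5 to 21.9% of stretch peaks were among the top 25% of their list in the 6 libraries other than E12.5. This was a lower share than on the rest in 6 of 6. E12.5 had 9 of 34 and 6 of 22 peaks there, 26.5% and 27.3%, beside 26.4% and 25.8% on the rest.

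Members with an E12.5 peak were stronger in the other libraries than those without. Their median score percentile was 52.5 and 82.1 at E14.5, 76.0 and 77.2 in ISC, and 71.7 and 77.8 in enterocytes. Members without an E12.5 peak had 38.0 and 39.7 at E14.5, 39.8 and 39.0 in ISC, and 37.0 and 44.8 in enterocytes. The order was the same in all 6 libraries, and on the rest of the chromosome as well, where the medians were 64.8 to 74.0 with and 38.2 to 43.1 without an E12.5 peak.

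Most of the few sites seen in both E12.5 libraries were also seen later, as was the case over all regions. Of the 8 such members, 7 had a peak in all 8 libraries. Over all regions 37757 had a peak in both E12.5 libraries, and 24563 of these had one in all 8. At least 1 E14.5 library had a peak in 87.5% of the 8 members and in 96.5% of the 37757 regions. The strongest of the 8 members at E12.5, chr5:39532502-39533845, had 81 and 61 tags at E12.5, 41 and 54 at E14.5, 44 and 51 in ISC, and 74 and 67 in enterocytes. Its tags, not scaled to the library, ranged from 41 to 81, and no order of the groups is read from them. The member at chr5:54500225-54502400, at the left edge of the second stretch, had 101 and 116 tags at E12.5, 93 and 111 at E14.5, 38 and 103 in ISC, and 152 and 139 in enterocytes. ISC replicate 1 was far below the other libraries there in unscaled tags. Its score percentile was 79.3, within the 63.6 to 92.3 of the other libraries. At chr5:40005154-40006642 there were 48 and 49 tags at E12.5, 83 and 86 at E14.5, 57 and 108 in ISC, and 141 and 126 in enterocytes. This peak lay above the 96th percentile of the list in each of the 6 later libraries and at the 75.4th and 90.4th at E12.5. At chr5:54584961-54586636 the tags were 93 and 66 at E12.5, 113 and 90 at E14.5, 100 and 132 in ISC, and 133 and 127 in enterocytes. The members at chr5:41927537-41928434 and chr5:41895919-41897057 had 28 to 55 and 35 to 87 tags over the 8 libraries. Tags are not scaled to the library, and the E12.5 libraries were the deepest.

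Of the members with a peak in all 6 later libraries and none at E12.5, the first stretch held 23 (9.75%) and the second 14 (6.06%), beside 5.49% of all regions. The choice of the stretches used the E12.5 side of this count. The one that ranked highest in the first stretch, chr5:40148086-40149020, had 46 and 59 tags at E14.5, 50 and 62 in ISC, and 68 and 61 in enterocytes. It lay above the 88th percentile in all 6 lists, and the nearest E12.5 peak was 1359 bp away. The next 4 in that stretch, chr5:42028481-42029195, chr5:41783834-41784657, chr5:41557038-41557885 and chr5:42013863-42014731, had 33 to 62, 25 to 59, 38 to 57 and 26 to 56 tags. Their nearest E12.5 peaks were 66.8, 25.1, 15.0 and 81.2 kb away. The median gap between E12.5 peaks of both libraries in that stretch was 38.1 kb. These members were picked for lacking an E12.5 peak, and nothing is read from the distances.

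In the second stretch chr5:54554367-54555326 ranked highest, with 52 and 37 tags at E14.5, 38 and 56 in ISC, and 81 and 51 in enterocytes. Its nearest E12.5 peak was 20.7 kb away. The member at chr5:57329074-57330033 had 34 and 20 tags at E14.5, 34 and 45 in ISC, and 74 and 71 in enterocytes, and the nearest E12.5 peak was 342 kb away. Its enterocyte values lay above all the others in tags and in percentile (92.2 and 94.7, beside 44.5 to 82.5). The other named members were chr5:54547557-54548751, chr5:54506701-54508683 and chr5:54622823-54623605, with 24 to 64, 79 to 163 and 26 to 56 tags. The widest of them, chr5:54506701-54508683, had 94 and 81 tags at E14.5, 84 and 79 in ISC, and 163 and 146 in enterocytes, and an E12.5 peak lay 699 bp away.

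Members seen in some of the later groups and not in others were few. The only member with peaks in all 4 adult and no embryonic library, chr5:41891825-41892450, had 22 and 24 ISC tags and 34 and 35 enterocyte tags. It lay between the 19.2nd and the 50.5th percentile, and an E12.5 peak lay 115 bp away. Among the 20 members seen at E14.5 alone (4.28%, beside 3.68% of all regions), the highest-ranked were chr5:40345286-40345636 with 29 and 23 tags, chr5:56101647-56102129 with 30 and 20, and chr5:55775138-55775469 with 27 and 16. An ISC peak called in at least 1 library lay 323 bp from the first of these. E14.5 and ISC alone shared 3 members (0.642%, beside 1.17%), all in the second stretch, chr5:54558631-54559013, chr5:57128960-57129338 and chr5:54905919-54906321, with 16 to 22, 12 to 21 and 13 to 32 tags.

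Among the 7 members with peaks in both ISC and neither E14.5 library, chr5:41157643-41158118 ranked highest with 26 and 34 tags in ISC. No enterocyte peak lay within 23.1 kb of it, and an E14.5 peak lay 978 bp away. The other ISC members named were chr5:41891825-41892450, given above, and chr5:39542199-39542712 with 31 and 20 tags in ISC and 35 in enterocyte replicate 2. Among the 7 with peaks in both enterocyte and neither ISC library, chr5:54720086-54720875 had 52 and 39 tags in enterocytes and 32 and 26 at E14.5. The next were chr5:54904901-54905531, with 41 and 35 tags in enterocytes and 24 and 13 at E14.5, and chr5:40244836-40245497, with 37 and 29 tags in enterocytes and 26 in E14.5 replicate 1. All 3 of these had a peak in at least 1 E14.5 library, so none was seen in enterocytes alone.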

How the data were processed

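Peak lists of 8 MBD pull-down libraries were used. Each pull-down started from 1 µg of DNA in fragments of 150-250 bp and used the MethylMiner kit, per the labels' protocols. The tools were Bowtie 1.1.2, SAMtools 1.2 and bcl2fastq 1.8.4 and the build mm9, per the submitters' processing notes. Per the file headers, peaks were called by MACS 1.4.2 in each library alone, without a control, with a tag size of 180 bp, a genome size of 1.87e+09, a regional background of 10000 bp, a band width of 200 bp and a p cutoff of 1e-05. The deposited tags are whole-number counts per peak and are not normalized. The deposited score is 10 times the negative log10 of the p-value. The deposited fold is the ratio of a peak to its surroundings in the same library.

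Peaks were assigned to a stretch by their midpoint, and merged regions by any overlap. Relative density is peaks per Mb in a stretch over peaks per Mb in the rest of chromosome 5, between the first and the last peak (143 Mb outside the stretches). Computation used Python 3.11.15, pandas 2.3.3, numpy 2.4.6, SciPy 1.17.1 and matplotlib 3.10.9. The density step was tested on simulated data. Later groups were compared by an exact two-sided permutation test over libraries with Benjamini-Hochberg adjustment over 6 tests. E12.5 values were not tested.

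The members, the stretches and the rules for naming were chosen with earlier results of these data known. Named members were up to 6 with a peak in both E12.5 lists, 5 per stretch with a peak in all 6 other lists and none at E12.5, and up to 3 of each group-specific kind, ranked by the lowest score percentile. Alternatives were lists of equal length, the stricter 50% of each list, bounds trimmed by 250 kb, peaks covering 50% of a region, each replicate left out, and a replicate block. Genes and sequences in the stretches were not analysed here.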

Additional observations from a re-analysis of the deposited data

How the results depend on the processing

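All differences here are in log2 relative density. With lists of equal length, E14.5 minus E12.5 was 0.95 in the first stretch and 0.74 in the second. ISC minus E14.5 turned to 0.44 and 0.29, adult minus E14.5 to 0.29 and 0.44, and enterocyte minus ISC in the first stretch to -0.28. With the stricter 50% of each list, E14.5 minus E12.5 was 1.82 and 1.23, ISC minus E14.5 in the first stretch turned to 0.14, and adult minus E14.5 to 0.14 and 0.016. With trimmed bounds, E14.5 minus E12.5 in the second stretch was 2.80, on the few E12.5 peaks left there. Enterocyte minus ISC in the first stretch then turned to -0.013. The cause of these changes was not tested. Without 1 library at a time, E14.5 minus E12.5 ran from 1.34 to 1.77 and from 1.31 to 1.74, ISC minus E14.5 from -0.18 to -0.0037 and from -0.53 to -0.033, enterocyte minus ISC from -0.041 to 0.14 and from -0.072 to 0.42, and adult minus E14.5 from -0.15 to 0.021 and from -0.39 to 0.0017. The labels number replicates 1 and 2 in each group and do not say that a number marks a shared litter or day. Within the replicate block, adult minus E14.5 stayed at -0.07 and -0.19 (exact permutation p = 0.667 in both, of 9 arrangements, smallest possible p 0.222).

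The count of members with E14.5 and no E12.5 peaks was 126 with full lists (27%, beside 23.9% of all regions) and 15 with equal lists (3.21%, beside 2.56%). It was 50 with the stricter 50% (10.7%, beside 11.6%) and 42 where peaks had to cover 50% of the region (8.99%, beside 10.2%). The share thus lay above that of all regions with full and equal lists, and below it under the stricter 50% and the 50% cover. Without 1 library the count was 131 to 248. The reverse count was 1 with full and equal lists and 0 with the stricter 50% (beside 0.216%). With 50% cover it was 2 (0.428%, beside 0.674%), and without 1 library 1 to 9. With equal lists, ISC alone against E14.5 was 11 and E14.5 alone 5, enterocytes alone against ISC 3 and ISC alone 7, and adult alone 3. With the stricter 50%, E14.5 alone against ISC was 13 (2.78%, beside 3.79%) and enterocytes alone 4 (0.857%, beside 0.881%). ISC alone against enterocytes was then 9 (1.93%, beside 2.13%) and adult alone 2 (0.428%, beside 0.269%). With 50% cover, ISC alone against E14.5 was 14 (3.00%, beside 4.20%) and E14.5 alone 17 (3.64%, beside 3.89%). Enterocytes alone were then 12 (2.57%, beside 3.18%) and adult alone 5 (1.07%, beside 1.25%). Without 1 library these counts ran from 13 to 44, 42 to 101, 12 to 37, 17 to 87 and 1 to 3, in the order ISC, E14.5, enterocytes, ISC against enterocytes and adult. A count without 1 library asks for a peak in fewer libraries, and shorter lists hold fewer peaks, by construction. Shares of all regions are not given for the counts without 1 library.

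Groups of 2 libraries limit every comparison. The E12.5 values rest on 11 to 17 peaks per library and stretch, and the trimmed second stretch on fewer. The lists give no tags outside peaks, so a site without a call may hold tags below the caller's threshold.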

Other observations

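To the right of the second stretch, E12.5 peaks were again few. From 59.0 to 62.5 Mb, each of the 7 windows of 500 kb had between 0 and 5 E12.5 peaks in either library. In 6 of them both libraries together had 2 or fewer. The window at 60-60.5 Mb had 0 and 0 peaks at E12.5, 10 and 11 at E14.5, 4 and 5 in ISC, and 6 and 3 in enterocytes. The window at 61.0-61.5 Mb had 0 and 1 at E12.5, 17 and 16 at E14.5, 8 and 17 in ISC, and 5 and 9 in enterocytes. All libraries other than E12.5 had peaks in both. Elsewhere on chromosome 5, windows with such low E12.5 numbers included all but the one at 84.5-85.0 Mb between 82.5 and 86.0 Mb.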
